A study of Mus musculus with 6 samples.

Results

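The genes described here are 10 transcription factors of mesenchymal cells, the paralogue pairs *Runx1* and *Runx2*, *Twist1* and *Twist2*, *Snai1* and *Snai2*, *Zeb1* and *Zeb2*, and *Prrx1* and *Prrx2*. They were taken by gene symbol from the 20327 symbols of a colon stromal cell data set, and all 10 symbols were found. The cells came from the colons of C57BL/6 mice, 9 to 15 weeks old, that carried *Il11-Egfp*, a bacterial artificial chromosome transgene in which the *Il11* locus drives EGFP. The mice drank 1.5% dextran sodium sulfate (DSS), which injures the colonic epithelium, for 5 days and then regular water, and cells were sorted on day 7. Live (DAPI-negative) cells lacking CD45, CD31, EpCAM and Ter119 were split into EGFP-Negative and EGFP-Positive cells, called IL-11- and IL-11+ fibroblasts in the study and EGFP- and EGFP+ cells below. Both groups therefore shared the transgene, the DSS and the lineage gate, and were separated by EGFP. EGFP stands for the activity of a transgene, and the EGFP- gate can hold any stromal cell type that lacks the lineage markers. Each group had 3 libraries made by 5′Tag-seq, which counts sequence tags from the 5′ ends of polyadenylated transcripts. The deposited counts held 1057170, 1078179 and 1169817 tags in EGFP- replicates 1, 2 and 3 and 1046538, 1022851 and 1049048 tags in EGFP+ replicates 1, 2 and 3.

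RUNX proteins bind DNA as partners of the shared subunit CBFB. RUNX1 is needed for blood stem cell formation and RUNX2 for the formation of bone-building osteoblasts. TWIST proteins are basic helix-loop-helix factors that pair with E proteins on E-box sequences, SNAI proteins are zinc finger repressors, ZEB proteins combine zinc fingers with a homeodomain, and PRRX proteins are paired-related homeodomain factors of embryonic limb and face mesenchyme. In the gut these families are known mainly from the stroma, and in epithelial cells TWIST, SNAI and ZEB factors repress E-cadherin during epithelial-mesenchymal transition (EMT).

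The sorted cells were first compared with markers of the cell types the gate could hold. *Il11*, named here because it drives the reporter, gave 26.7, 48.1 and 73.1 normalized CPM in EGFP- replicates 1, 2 and 3 and 1438, 743.2 and 2535 in EGFP+ replicates 1, 2 and 3, so that every library matched its label. The cells were sorted on this reporter, so these values largely restate the gate. The study placed EGFP within *Il11* in the transgene, and tags of the transgene and of the gene itself were not separated here. Normalized CPM (counts scaled to a common library total over the tested genes) use edgeR's trimmed mean of M values (TMM). All 12 fibroblast markers were tested in both groups, and their summed level was 25120, 25470 and 27880 normalized CPM in EGFP- and 44260, 36680 and 32570 in EGFP+ replicates, with *Dcn*, a matrix proteoglycan, the most abundant. The list did not move as one. *Dcn* (log2 fold change 0.67) and *Thy1* (0.88) lay above in all EGFP+ libraries, while *Dpt* (-0.96) and *Lum* (-0.64) lay below in all of them. These genes passed the p threshold and missed the fold threshold. Of the 12, *Col3a1* and *Pdpn* were called higher and *Pi16* lower in EGFP+ cells; *Pdpn* (1.06) fell below the fold threshold with library size as the only scaling (0.97) and without EGFP- replicate 1 (0.94) or EGFP+ replicate 1 (0.97). *Pi16* (-2.01) had overlapping groups and lost its call with DESeq2 (-2.02, adjusted p 0.154), and without EGFP+ replicate 3 it was -3.43. Smooth muscle markers summed to 2709, 3353 and 4174 normalized CPM in EGFP- and 147.3, 207.1 and 400.5 in EGFP+ replicates, with *Myh11*, smooth muscle myosin, the most abundant, and 8 of 9 were called lower in EGFP+ cells. Pericyte markers summed to 2706, 2337 and 2137 in EGFP- and 1079, 903.6 and 804.9 in EGFP+ replicates, led by *Rgs5*, and 5 of 8 tested (*Rgs5*, *Cspg4*, *Notch3*, *Mcam* and *Ndufa4l2*) were called lower. Of the other 3, *Abcc9* (log2 fold change 0.66, no overlap between groups) and *Kcnj8* (0.71, with overlap) were higher and passed the p threshold but not the fold threshold, and *Pdgfrb* was at -0.38. Also called lower were *Gfap*, a marker of enteric glia, and the 3 markers of interstitial cells of Cajal, *Kit*, *Ano1* and *Etv1* (-1.12 on the log2 scale, and -0.93 without EGFP- replicate 1). *Notch3*, *Ndufa4l2*, *Gfap*, *Kit* and the smooth muscle marker *Cnn1* passed the filter through their EGFP- libraries alone, so a higher call was hardly open to them. Without such genes 3 of 6 pericyte, 7 of 8 smooth muscle and 2 of 2 Cajal cell markers were called lower. In sorted bulk RNA, fewer cells of a type and less RNA per cell cannot be told apart, and the part of these cell types in the values below was not tested.

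Markers of lineages that the gate removes, and of mesothelial cells, which it can hold, had some tags in both groups. Of the leukocyte, lymphatic endothelial and mesothelial markers none was tested, and their most abundant genes, *S100a8*, *Prox1* and *Wt1*, had means of 5.59, 4.19 and 3.52 normalized CPM. Leukocyte markers summed to 18.1, 46.2 and 28.7 normalized CPM in EGFP- and 41.3, 14.2 and 18.1 in EGFP+ replicates, and mesothelial markers to 15.3, 5.65 and 17.2 and 1.06, 0 and 1.91. Of blood endothelial markers *Tek* and *Esam* were tested and called lower in EGFP+ cells, *Esam* having passed the filter through its EGFP- libraries alone. *Esam* had 31, 62 and 58 tags in EGFP- and 1, 2 and 7 in EGFP+ replicates, and *Tek* had 33, 24 and 42 and 17, 7 and 5, a log2 fold change of -1.59 that lost its call without EGFP+ replicate 2 (-1.39) and was -2.29 without EGFP+ replicate 1. Of epithelial markers *Lgals4* alone was tested, at a mean of 19.8 normalized CPM, and its lower call (-1.26) was lost without EGFP- replicate 3 (-1.14) and without EGFP+ replicate 1 (-1.02) or 2 (-1.16). Red cell markers, led by *Hbb-bs*, summed to 90.7, 0 and 305.5 normalized CPM in EGFP- and 19.1, 2.03 and 19.1 in EGFP+ replicates.

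Among the 10 factors, of which 9 were tested, *Runx2* alone was called higher in EGFP+ cells. A gene was tested where 3 or more libraries held 10 or more of its tags, which held for 9 of the 10 factors and 9334 genes in all, and was called where the adjusted p of edgeR's quasi-likelihood test was under 0.05 and the fold change over 2. Each of the 9 tested factors had 12 tags or more in every library. The tenth, *Prrx2*, fell outside the filter. Of the 9, 1 was called higher, where 3.44% of all tested genes were, and 0 were called lower, where 6.37% were; in either direction 9.81% of tested genes were called. At an unadjusted p under 0.05 edgeR's quasi-likelihood test gave 4 higher (*Runx1*, *Runx2*, *Twist1* and *Twist2*) and 0 lower, and DESeq2 called 1 higher and 0 lower. The log2 fold change, EGFP+ over EGFP-, was positive for 6 and negative for 3 of the 9, with a median of 0.40 against -0.01 over all tested genes. The 3 EGFP+ libraries lay all above or all below the 3 EGFP- libraries for 4 of the 9 factors, and for 31.2% of all tested genes. Summed over the 10 factors, the level was 729.5, 729.2 and 731.6 normalized CPM in EGFP- and 875.5, 776.7 and 794.4 in EGFP+ replicates 1, 2 and 3. The factors moved unevenly within that sum, as the plot of each factor by library shows.

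**Figure D1:**
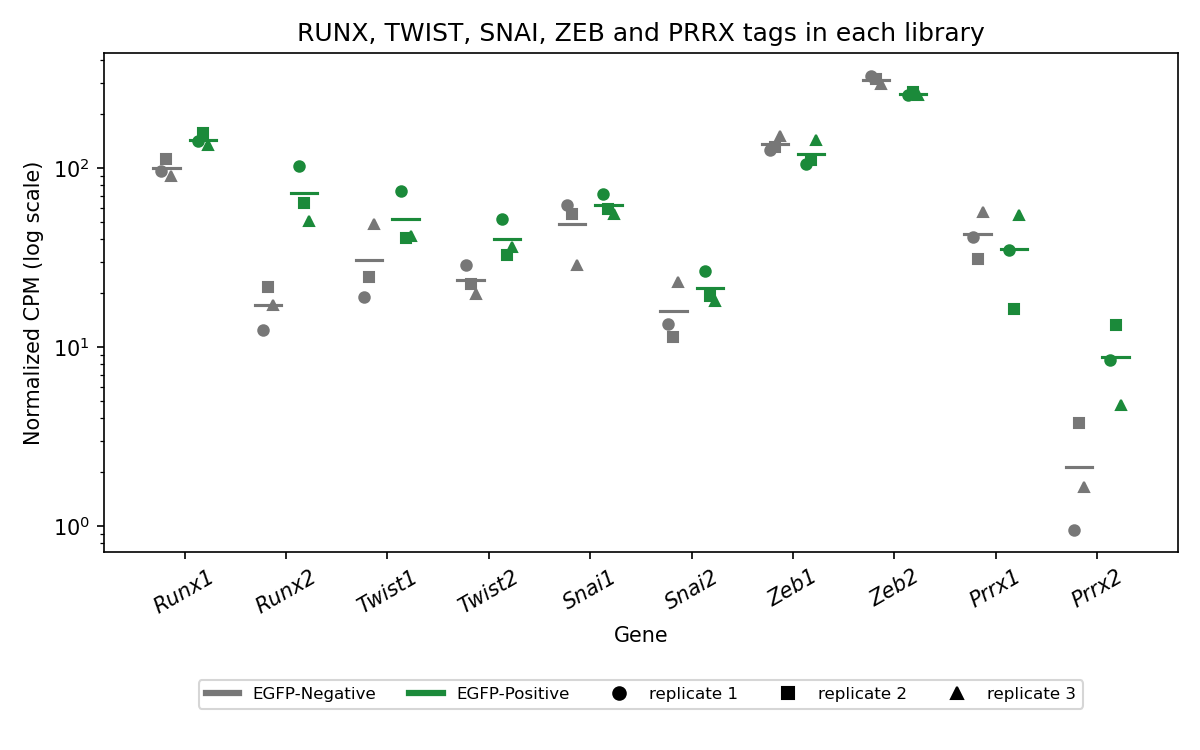
Normalized CPM (log axis) of the 10 factors in each of the 6 libraries, EGFP-Negative in grey and EGFP-Positive in green, with the symbol showing the replicate number and the bar the group mean. *Runx2* ran from 12.4 to 21.7 in EGFP-Negative and from 50.5 to 102.8 in EGFP-Positive libraries, while *Zeb1* overlapped between the groups.

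*Runx2*, the RUNX factor of osteoblasts, gave 12.4, 21.7 and 17.2 normalized CPM in EGFP- replicates 1, 2 and 3 and 102.8, 64.0 and 50.5 in EGFP+ replicates 1, 2 and 3. Every EGFP+ library lay above every EGFP- library, and EGFP+ replicate 1 was the highest. The raw tags behind these values were 13, 23 and 21 in EGFP- and 97, 63 and 53 in EGFP+ replicates. The group means were 17.1 ± 4.63 and 72.4 ± 27.1 normalized CPM (SD, n = 3 each), and the fitted difference was 4.19-fold. Its log2 fold change was 2.07 (SE 0.30, 95% confidence interval 1.44 to 2.69), and its Benjamini-Hochberg adjusted p in edgeR's quasi-likelihood fit was 6.6e-05. The call was made under all 23 alternatives tried, with log2 fold changes from 1.74 to 2.28.

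*Runx1*, the RUNX factor of blood formation, gave 96.4, 112.1 and 90.3 normalized CPM in EGFP- and 141.0, 156.4 and 135.4 in EGFP+ replicates 1, 2 and 3. The groups did not overlap, but the distance between them was small. On the log2 scale the fold change was 0.53 (SE 0.17, 95% confidence interval 0.18 to 0.89), a 1.45-fold difference, with a Benjamini-Hochberg adjusted p of 0.0376 in edgeR's quasi-likelihood fit. It thus passed the p threshold and missed the fold threshold, and across the alternatives its adjusted p ran from 0.0114 to 0.142.

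The balance of the RUNX pair differed accordingly. *Runx2* made up 11.4%, 16.2% and 16.0% of the tags of the pair in EGFP- replicates 1, 2 and 3 and 42.2%, 29.0% and 27.2% in EGFP+ replicates 1, 2 and 3. The highest EGFP- share, 16.2%, had an exact Clopper-Pearson 95% interval of 10.6% to 23.3%, and the lowest EGFP+ share, 27.2%, one of 21.1% to 34.0%, so that the intervals of the nearest libraries overlapped. These intervals cover counting error alone. The mean share was 14.5% ± 2.72 in EGFP- and 32.8% ± 8.18 in EGFP+ libraries (SD, n = 3 each), a difference of 18.3 percentage points. An exact two-sided permutation test over the libraries gave p = 0.1, the smallest that 3 against 3 allows (0.5 after Benjamini-Hochberg adjustment over 5 pairs), so the shares are a description. *Runx3*, the remaining RUNX gene, had 1 tag in EGFP- replicate 2, 1 in EGFP+ replicate 3 and 0 in the other libraries.

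Of partners of RUNX proteins few were called, as of all genes. Of 13 tested cofactors and regulators, 0 were called higher and 1 lower by edgeR's quasi-likelihood test, beside 3.44% and 6.37% of all tested genes, with a median log2 fold change of -0.07, where 2 were higher at an unadjusted p under 0.05 and DESeq2 called 0 higher and 1 lower. *Cbfb*, the common DNA-binding partner, had a mean of 40.2 ± 4.08 normalized CPM in EGFP- and 59.2 ± 9.12 in EGFP+ libraries (SD, n = 3 each), a log2 fold change of 0.56 that missed both thresholds (Benjamini-Hochberg adjusted p of 0.0887 in edgeR's quasi-likelihood fit). *Hipk2*, a kinase that phosphorylates RUNX proteins, had the most tags of the list. It gave 141.3, 128.1 and 128.9 normalized CPM in EGFP- and 290.4, 190.9 and 193.6 in EGFP+ replicates, a log2 fold change of 0.76 below the fold threshold. The gene called lower was *Cbfa2t3*, a corepressor of the ETO family, with a log2 fold change of -2.07. It had 3, 2 and 13 tags in EGFP+ replicates 1, 2 and 3, and without EGFP+ replicate 3 the log2 fold change was -3.24.

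Genes known as RUNX2 targets in bone and cartilage were partly below the filter, and those called were higher in EGFP+ cells. Of 21 such genes 17 were in the table and 9 were tested, and 5 of the 9 were called higher and 0 lower by edgeR's quasi-likelihood test and by DESeq2, with 0 lower at an unadjusted p under 0.05. The median log2 fold change of the 9 was 1.09, and of all tested genes 3.44% were called higher and 6.37% lower. The study had already named *Mmp13*, *Tnfsf11* and *Tnfrsf11b* as elevated in IL-11+ fibroblasts. The list was made with earlier results of these data known, so its counts are a description. One of the 5, *Spp1*, passed the filter through its EGFP+ libraries alone, and of the 8 genes without it 4 were called higher, with a median of 0.95. *Mmp13*, a collagenase, gave 43.0, 18.8 and 28.7 normalized CPM in EGFP- and 1055, 417.3 and 973.7 in EGFP+ replicates 1, 2 and 3. Its lowest EGFP+ library was far above its highest EGFP- library, and its log2 fold change was 4.75 (SE 0.34). *Tnfsf11*, which encodes the osteoclast factor RANKL, gave 5.73, 11.3 and 4.11 in EGFP- and 94.3, 102.5 and 42.0 in EGFP+ replicates, a log2 fold change of 3.49 (SE 0.39). For *Alpl*, the alkaline phosphatase of mineralizing cells, the log2 fold change was 1.63 (SE 0.25), with no overlap between groups.

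*Spp1*, which encodes the matrix protein osteopontin, had 1, 0 and 0 tags in EGFP- and 203, 27 and 29 in EGFP+ replicates. Most of its EGFP+ tags came from replicate 1, and the ratio of the summed levels was 289 with an exact 95% counting interval from 51.5 to 11470. It was 91.6 (15.8 to 3682) without EGFP+ replicate 1 and 183 (32.6 to 7274) without EGFP- replicate 3. Without EGFP- replicate 1 the EGFP- group had 0 tags, and against a floor of 3 tags over the group *Spp1* was at least 66.1-fold higher. *Tnfrsf11b*, which encodes the RANKL decoy osteoprotegerin, was called at a log2 fold change of 1.09. It lost the call without EGFP- replicate 1 (0.74) or 2 (1.05) and without EGFP+ replicate 1 (1.01), and with library size as the only scaling. The collagen I genes *Col1a1* and *Col1a2* (log2 fold changes of 0.35 and 0.42), *Fgfr2* (0.38) and *Vegfa* (0.81) were tested and not called. Of the RUNX1 target genes of blood cells 3 were tested, and *Cdkn1a*, a cell cycle inhibitor, was called lower at a log2 fold change of -1.26 while 0 were higher by edgeR's quasi-likelihood test, by DESeq2 or at an unadjusted p under 0.05.

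Promoters were read for RUNX motifs because *Runx2* and 5 of the 9 tested target genes were called higher. The target genes had been listed as known RUNX2 targets, so the motif counts below are a description. The RefSeq promoter table (GRCm38.p6) held 8 of the 10 factors, and the 250 bases before each start were searched for TGTGGT on both strands (ACCACA on the other). Of those 8 genes, 1 held it, *Runx2* itself, and of the 14 RUNX2 target genes with a listed promoter, *Spp1*, *Bglap* and *Mmp13* did (3 of 14). *Bglap* was not in the count table, and of the 4 called target genes with a listed promoter 2 did, *Spp1* and *Mmp13*. Over all 27025 genes of the table, 15.9% held the motif in at least 1 promoter, and over all 32851 promoters 14.0% did. The promoters of *Runx2* and *Mmp13* are shown, each with 1 RUNX match in capitals. These genes are the factor called higher and the called target with the most tags. Both were chosen by their calls and not by a motif count above that of all genes. The 2 promoters lie at chr17:44814628-44814877 on the minus strand and chr9:7272264-7272513 on the plus strand. The GENCODE annotation starts *Runx2* further upstream, at chr17:44814797, so that the *Runx2* match precedes the RefSeq start and lies inside the GENCODE gene.
Runx2: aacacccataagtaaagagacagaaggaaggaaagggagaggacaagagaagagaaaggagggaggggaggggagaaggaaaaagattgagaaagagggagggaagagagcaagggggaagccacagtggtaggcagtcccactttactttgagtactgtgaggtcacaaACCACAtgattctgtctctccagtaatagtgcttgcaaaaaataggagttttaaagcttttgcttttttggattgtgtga
Mmp13: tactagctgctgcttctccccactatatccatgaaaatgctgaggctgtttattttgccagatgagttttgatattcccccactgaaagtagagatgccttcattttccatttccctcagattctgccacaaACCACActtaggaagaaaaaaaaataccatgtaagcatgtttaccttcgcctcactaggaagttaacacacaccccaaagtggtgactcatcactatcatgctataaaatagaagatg
The RefSeq windows go on for 50 bases past each start, and with these included a stretch of 22 bases, with 2 such matches, was the longest run that the *Runx2* window shared with the distal *Runx1* window. It lies inside the transcripts and outside the bases searched above. Counted from 1 at each start, it spans bases 19 to 40 of the *Runx2* transcript (chr17:44814588-44814609) and 24 to 45 of the *Runx1* transcript (chr16:92826030-92826051), both on the minus strand.
Shared run: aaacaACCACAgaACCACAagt
Binding of RUNX proteins to these sequences was not measured in these cells.

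*Twist1* and *Twist2* showed positive fold changes that were not called, although with the replicate block both passed the p threshold (Benjamini-Hochberg adjusted p of 0.0365 and 0.029 in edgeR's quasi-likelihood fit) and missed the fold threshold alone. *Twist1*, which directs cranial and limb mesenchyme, gave 19.1, 24.5 and 48.4 normalized CPM in EGFP- and 74.2, 40.6 and 42.0 in EGFP+ replicates 1, 2 and 3. The groups overlapped because EGFP- replicate 3 lay above EGFP+ replicates 2 and 3. The log2 fold change was 0.74 (SE 0.32), with a Benjamini-Hochberg adjusted p of 0.136 in edgeR's quasi-likelihood fit. Without EGFP- replicate 3 it was 1.23 with an adjusted p of 0.0165 and was called, so that 1 library decided this gene. Across all alternatives the adjusted p ran from 0.0131 to 0.505. *Twist2*, which acts in dermal mesenchyme, gave 28.6, 22.6 and 19.7 in EGFP- and 51.9, 32.5 and 36.2 in EGFP+ replicates. Its groups did not overlap, and its log2 fold change was 0.77 (SE 0.27), with a Benjamini-Hochberg adjusted p of 0.0665 in edgeR's quasi-likelihood fit and a range of 0.029 to 0.276 across the alternatives.

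**Figure D2:**
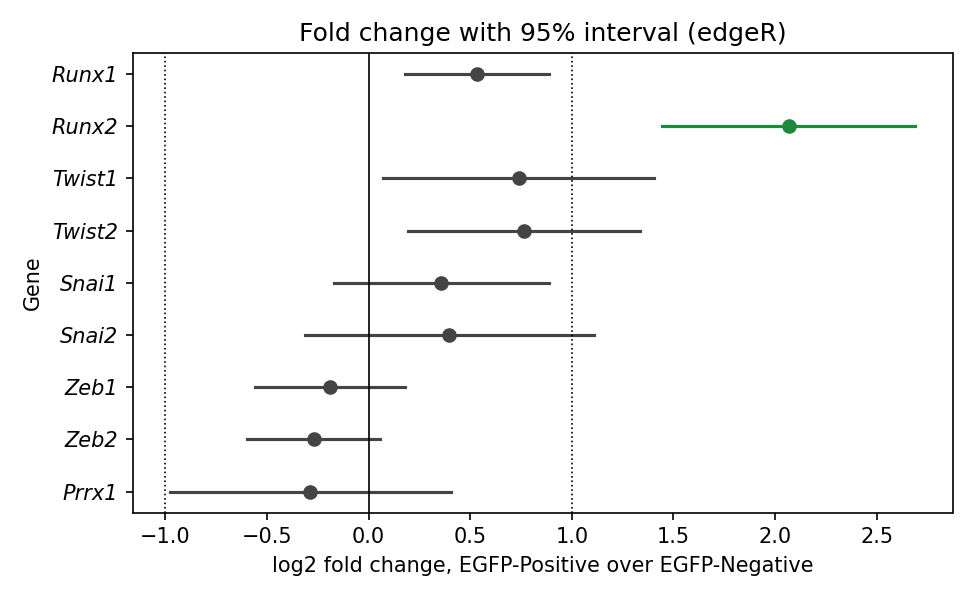
The log2 fold change (EGFP-Positive over EGFP-Negative, n = 3 libraries each) of the 9 tested factors with its 95% confidence interval from edgeR; dotted lines mark a 2-fold difference, and the called gene is green. The interval of *Runx2*, 1.44 to 2.69, lies wholly above the 2-fold line, and those of *Snai1*, *Snai2*, *Zeb1*, *Zeb2* and *Prrx1* include 0.

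Of the dimer partners and inhibitors of TWIST, 10 were tested, 0 called higher and 1 lower by edgeR's quasi-likelihood test and by DESeq2, with 0 higher and 2 lower (*Id1* and *Hand1*) at an unadjusted p under 0.05. By edgeR 3.44% of all tested genes were called higher and 6.37% lower. The EGFP+ libraries lay all below the EGFP- libraries for 4 of the 10 genes and all above for 0, where 31.2% of all tested genes did one or the other. The E protein *Tcf4* had a mean of 261.3 normalized CPM in EGFP- and 299.0 in EGFP+ libraries and a log2 fold change of 0.19. *Id3*, an inhibitor that binds E proteins, had the most tags of the list, and its log2 fold change was -0.35 with every EGFP+ library below every EGFP- library. *Hand1*, another basic helix-loop-helix factor, was called lower, with 12, 10 and 10 tags in EGFP- and 0, 0 and 1 in EGFP+ replicates, and so passed the filter through its EGFP- libraries alone. The ratio of its summed levels was 28.6-fold lower, with an exact 95% counting interval from 4.78 to 1166. Without EGFP+ replicate 3 the EGFP+ group had 0 tags, and against a floor of 3 tags over the group *Hand1* was at least 6.18-fold lower.

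Among 15 tested genes linked to TWIST1 or PRRX1, 6 were called higher and 1 lower by edgeR's quasi-likelihood test, with a median log2 fold change of 0.64. Over all tested genes 3.44% were called higher and 6.37% lower. The study had already named *Hgf* and *Wnt5a* as elevated in IL-11+ fibroblasts, and this list too was made with earlier results known. The growth factor genes *Hgf* (log2 fold change 2.29, SE 0.17), *Fgf10* (1.64, SE 0.19) and *Wnt5a* (1.54, SE 0.20) and the matrix gene *Tnc* (2.23, SE 0.26) were higher in all 3 EGFP+ libraries than in any EGFP- library and were called under every alternative. *Dnm3os*, a noncoding RNA on the strand opposite to *Dnm3* that hosts microRNAs and is known as a TWIST1 target, gave 17.2, 26.4 and 17.2 normalized CPM in EGFP- and 60.4, 29.4 and 37.2 in EGFP+ replicates. Its groups did not overlap, but EGFP+ replicate 2 was close to EGFP- replicate 2. The log2 fold change of 1.06 lost its call without EGFP- replicate 1 (0.94) or 3 (0.93), without EGFP+ replicate 1 (0.73) and with library size as the only scaling (0.97). *Dnm3* itself had a log2 fold change of 1.05, with a Benjamini-Hochberg adjusted p of 0.153 in edgeR's quasi-likelihood fit.

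*Ybx1*, a cold shock domain RNA-binding protein, had 1.01 on the log2 scale. With the replicate number as a replicate block it fell just below the fold threshold (0.97), and it also did so with library size as the only scaling (0.92), without EGFP- replicate 1 (0.92) or 3 (0.92) and without EGFP+ replicate 1 (0.76). The gene of this group called lower was *Tnfaip6*, a hyaluronan-binding protein, at -1.03. That call was lost with DESeq2 (-1.02), with no filter (-0.99), without EGFP- replicate 3 (-0.70) and without EGFP+ replicate 1 (-0.84) or 2 (-0.88). *Postn*, a matrix protein, was lower in all EGFP+ libraries (log2 fold change -0.85) and passed the p threshold but not the fold threshold, and *Pdgfra*, a receptor of mesenchymal cells, was at 0.22. *Il6* gave 514.6, 543.6 and 1228 normalized CPM in EGFP- and 948.6, 730.0 and 2104 in EGFP+ replicates 1, 2 and 3. Its groups overlapped through replicate 3, while the EGFP+ library was the higher of each same-numbered pair. The log2 fold change was 0.72 with a Benjamini-Hochberg adjusted p of 0.173 in edgeR's quasi-likelihood fit, and 0.70 with 9.8e-05 with the replicate block.

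*Snai1* and *Snai2* did not pass either threshold. *Snai1* gave 62.1, 55.6 and 28.7 normalized CPM in EGFP- and 72.1, 58.9 and 55.3 in EGFP+ replicates 1, 2 and 3, where EGFP- replicate 3 was the lowest and the EGFP+ library was the higher of each same-numbered pair. *Snai2* gave 13.4, 11.3 and 23.0 in EGFP- and 26.5, 19.3 and 18.1 in EGFP+ replicates. Here EGFP- replicate 3 was the highest of its group, so that this library was low for one SNAI gene and high for the other. Its *Snai2* share of the pair was 44.4% (exact Clopper-Pearson 95% interval 31.9% to 57.5%), while the other 5 libraries lay between 16.9% and 26.9%. The log2 fold changes were 0.36 (SE 0.25) for *Snai1* and 0.40 (SE 0.34) for *Snai2*, with Benjamini-Hochberg adjusted p of 0.407 and 0.506 in edgeR's quasi-likelihood fit.

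*Zeb2* had the most tags of the 10 factors. It gave 328.5, 314.7 and 294.0 normalized CPM in EGFP- and 257.6, 265.0 and 254.6 in EGFP+ replicates 1, 2 and 3. All EGFP+ libraries lay below all EGFP- libraries, by a log2 fold change of -0.27 (SE 0.16, 95% confidence interval -0.60 to 0.06) that was not called, with a Benjamini-Hochberg adjusted p of 0.291 in edgeR's quasi-likelihood fit. *Zeb1* gave 127.0, 131.9 and 151.9 in EGFP- and 106.0, 110.7 and 143.1 in EGFP+ replicates. Replicate 3 was the highest in both groups, and the groups overlapped, although the EGFP+ library was the lower of each same-numbered pair. Its log2 fold change was -0.19 (SE 0.18, 95% confidence interval -0.56 to 0.18). Both intervals exclude a 2-fold difference in either direction, and both signs were negative under every scaling tried.

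The corepressors through which SNAI and ZEB proteins act were tested for 13 genes. Of these, 0 were called higher and 1 lower by edgeR's quasi-likelihood test, beside 3.44% and 6.37% of all tested genes. At an unadjusted p under 0.05 in that test 2 were higher, and DESeq2 called 0 in either direction. *Ctbp2*, a ZEB-binding corepressor, gave 43.9, 39.6 and 34.5 normalized CPM in EGFP- and 91.1, 45.7 and 65.8 in EGFP+ replicates, and its log2 fold change of 0.78 missed the fold threshold. For its relative *Ctbp1* the log2 fold change was -0.20, and for the deacetylase gene *Hdac1* it was 0.46. The gene called lower was *Ezh2*, the histone methyltransferase of Polycomb complexes, at a log2 fold change of -1.36, which passed the filter through its EGFP- libraries alone. Its call was lost with DESeq2 and without EGFP+ replicate 1 (-1.29) or 3 (-1.22) and, where the tested genes were those of all 6 libraries, without EGFP- replicate 1 (-1.22) or 3 (-1.30). Of 11 tested genes listed for SNAI protein turnover, 0 were called by edgeR's quasi-likelihood test or by DESeq2, and 1 had an unadjusted p under 0.05. This was *Pkd1* (-0.75, Benjamini-Hochberg adjusted p of 0.0368 in edgeR's quasi-likelihood fit, below the fold threshold), which encodes polycystin-1 and not the kinase PKD1 that phosphorylates SNAI1; the gene of that kinase, *Prkd1*, was at -0.05. *Gsk3b*, the kinase that marks SNAI1 for degradation, had a log2 fold change of 0.38, and *Csnk1a1*, which had the most tags of these genes, one of -0.10.

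Epithelial genes that these factors repress were nearly silent in both groups. Cells with EpCAM had been sorted out. Of 26 listed genes 7 were not in the table, among them *Cdh1*, which encodes E-cadherin. Of the 19 in the table, 15 had at most 3 tags in every library, and 1 was tested, *Jup*, which encodes the junction protein plakoglobin. *Jup* gave 39.1, 43.3 and 19.7 normalized CPM in EGFP- and 25.4, 10.2 and 12.4 in EGFP+ replicates, with overlap between EGFP- replicate 3 and EGFP+ replicate 1. Its log2 fold change of -1.08 missed the threshold, with a Benjamini-Hochberg adjusted p of 0.0541 in edgeR's quasi-likelihood fit. With the replicate block it was called lower (log2 fold change -1.09, Benjamini-Hochberg adjusted p of 0.0077 in edgeR's quasi-likelihood fit), as it was with library size as the only scaling and with the exact test after iterative TMM. At this depth 3 tags correspond to 2.57 to 2.93 CPM, and differences between the groups at or below that level were not tested.

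Mesenchymal genes of EMT were expressed in both groups, and 9 of 24 tested were called higher and 2 lower in EGFP+ cells by edgeR's quasi-likelihood test, with a median log2 fold change of 0.78. Among all tested genes the shares were 3.44% higher and 6.37% lower. *Mmp3* of this list had already been named by the study as elevated in IL-11+ fibroblasts. *Vim*, the intermediate filament vimentin, had a mean of 1213 ± 142.9 normalized CPM in EGFP- and 1003 ± 213.8 in EGFP+ libraries (SD, n = 3 each) and was not called, and *Postn*, given above, was lower. The genes called higher with the largest fold changes were *Mmp3* (log2 fold change 3.39, SE 0.29), a stromelysin, *Tnc* (2.23, SE 0.26), *S100a4* (1.66, SE 0.23) and *Mmp2* (1.36, SE 0.18). These were called under every alternative, as was the collagen crosslinker *Loxl2* (1.13). *Col3a1* (1.04), *Col5a1* (1.07) and *Col5a2* (1.06) sat just above the fold threshold. *Col3a1* fell below it without EGFP- replicate 1 (0.83), *Col5a1* without EGFP- replicate 1 (0.96) or EGFP+ replicate 2 (0.94), and *Col5a2* without EGFP+ replicate 1 (0.97). *Lox* (1.05) did so without EGFP- replicate 3 (0.88) or EGFP+ replicate 1 (0.80), and missed both thresholds without EGFP- replicate 2 (0.89). These 4 genes also fell below the fold threshold with library size as the only scaling. The genes called lower, *Acta2* (-3.80, and -4.52 without EGFP+ replicate 3) and *Tagln* (-3.62), are contractile genes that the smooth muscle list also holds, and the sums of that list given above fell with them.

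*Prrx1*, which marks limb and connective tissue mesenchyme, gave 41.1, 31.1 and 56.7 normalized CPM in EGFP- and 35.0, 16.2 and 54.4 in EGFP+ replicates 1, 2 and 3. Replicate 3 was the highest and replicate 2 the lowest in both groups, and the groups overlapped, with the EGFP+ library the lower of each same-numbered pair. The log2 fold change was -0.29 (SE 0.33), with a Benjamini-Hochberg adjusted p of 0.638 in edgeR's quasi-likelihood fit, and without EGFP+ replicate 2 it was 0.06. *Prrx2* had 1, 4 and 2 tags in EGFP- and 8, 13 and 5 tags in EGFP+ replicates, too few for the filter. Each EGFP+ library held more tags than any EGFP- library, but by 1 tag between the nearest of them. The ratio of the summed levels was 4.15 with an exact 95% counting interval from 1.75 to 11.3 (6.59, 2.02 to 34.0, without EGFP- replicate 2), and an exact two-sided permutation test over the 6 libraries gave p = 0.1, the smallest it can give. With no filter on low genes *Prrx2* reached 2.04 on the log2 scale with an Benjamini-Hochberg adjusted p of 0.0298 in edgeR's quasi-likelihood fit, and with a filter of 10 tags in 1 library 2.01 and 0.0699.

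**Figure D3:**
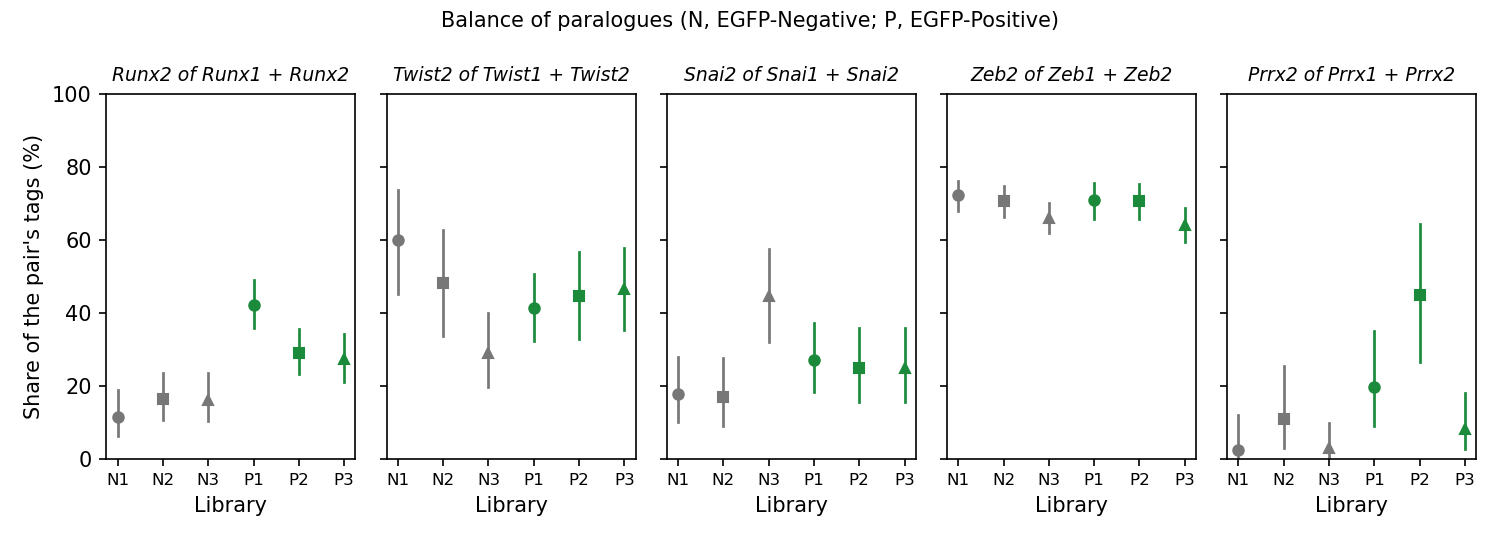
Share of the second gene in the summed tags of each paralogue pair, in percent, for EGFP-Negative (N, grey) and EGFP-Positive (P, green) libraries, with exact Clopper-Pearson 95% intervals that cover counting error. *Runx2* lies at 11.4% to 16.2% in N and 27.2% to 42.2% in P libraries, whereas the *Zeb2* share runs from 64.0% to 72.1% over all 6.

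In the other pairs the shares varied within groups or rested on few tags. The mean *Zeb2* share was 69.5% ± 3.20 in EGFP- and 68.5% ± 3.85 in EGFP+ libraries, the *Twist2* share 45.6% ± 15.7 and 44.0% ± 2.61, and the *Snai2* share 26.4% ± 15.7 and 25.4% ± 1.27 (SD, n = 3 each). Without EGFP- replicate 3 the mean EGFP- share was 17.3% for *Snai2*, below every EGFP+ library, and 54.0% for *Twist2*, above every EGFP+ library. Exact two-sided permutation tests over the libraries gave p of 0.7, 0.8 and 1 for these (1 for each after Benjamini-Hochberg adjustment over 5 pairs). The *Prrx2* share was 5.3% ± 4.78 and 24.1% ± 18.8 (SD, n = 3 each; exact permutation p = 0.2), and EGFP+ replicate 2 alone stood at 44.8% of 29 tags. Without that library the EGFP+ mean was 13.8%, and without EGFP- replicate 2 the EGFP- mean was 2.5%.

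Levels were compared between the 10 genes per kb of the longest annotated transcript, although tags from 5′ ends need not grow in number with length. In EGFP- cells the order was *Zeb2*, *Snai1*, *Zeb1*, *Twist1*, *Runx1*, *Twist2*, *Snai2*, *Prrx1*, *Runx2* and *Prrx2*, from 34.2 ± 1.90 to 1.47 ± 1.02 normalized CPM per kb (SD, n = 3). Neighbours in this order were further apart than the sum of their SDs between *Runx1* (17.0 ± 1.92) and *Twist2* (9.37 ± 1.81) and between *Prrx1* (6.58 ± 1.97) and *Runx2* (2.65 ± 0.716), and the other neighbours were not. In EGFP+ cells the order was *Snai1*, *Twist1*, *Zeb2*, *Runx1*, *Zeb1*, *Twist2*, *Runx2*, *Snai2*, *Prrx2* and *Prrx1*, from 38.3 ± 5.45 to 5.39 ± 2.92. There the neighbours further apart than the sum of their SDs were *Zeb2* (28.4 ± 0.586) and *Runx1* (24.6 ± 1.85). *Runx2* thus stood ninth in EGFP- and seventh in EGFP+ cells, at 11.2 ± 4.20 normalized CPM per kb in the latter. By mean normalized CPM without length the order in EGFP- cells was *Zeb2*, *Zeb1*, *Runx1*, *Snai1*, *Prrx1*, *Twist1*, *Twist2*, *Runx2* (17.1), *Snai2* and *Prrx2*. In EGFP+ cells it was *Zeb2*, *Runx1*, *Zeb1*, *Runx2* (72.4), *Snai1* (62.1), *Twist1*, *Twist2*, *Prrx1*, *Snai2* and *Prrx2*. The places of *Runx2* and *Snai1* thus depended on the division by length.

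The 2 genes of each pair lie on different chromosomes of GRCm38 in the GENCODE annotation. *Runx2* is at chr17:44495987-44814797 and *Runx1* at chr16:92601466-92826149, both on the minus strand. *Twist1* is at chr12:33957671-33959829, *Twist2* at chr1:91801461-91848028, *Snai1* at chr2:167538195-167542814 and *Snai2* at chr16:14705852-14709385, all on the plus strand. *Zeb2* (chr2:44983632-45117395) and *Prrx1* (chr1:163245119-163313710) are on the minus strand, and *Prrx2* is at chr2:30834972-30881251 on the plus strand. All 50-base windows in the first 300 bases of their transcripts were unique to the gene for 9 of the 10 factors, and 1.22% of those of *Zeb1* occurred in transcripts of other genes, none of them *Zeb2*. Of the listed antisense and neighbouring genes, *Zeb2os*, *Supt3* and *Clic6* were below the filter, and *Rcan1*, a neighbour of *Runx1*, had a log2 fold change of -0.82 and was not called.

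The genes whose levels ran most like *Runx2* over the 6 libraries, by Pearson correlation of log2(normalized CPM + 1) among 4867 genes, were *Glipr2* (r = 0.998), *Eif3c* (0.997) and *Dlat* (0.996). For *Zeb2*, the factor with the smallest p among those with a negative fold change, they were *Trip10* (0.998), *Cyp27a1* (0.997) and *Itpkc* (0.993). Such values are the highest of many over 2 groups of 3 libraries and describe these libraries.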

How the data were processed

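The deposited counts are whole tags per gene symbol, made by the authors: per their methods, reads were trimmed with cutadapt 1.18 and mapped to mm10 RefSeq RNA with Bowtie2 2.2.5 in 1 orientation, and tags were counted per gene. Tag counts of 20327 symbols in 6 libraries were analysed here in R 4.3.3 with edgeR 4.0.16 (TMM, glmQLFit and glmQLFTest, no block), with the study's thresholds. DESeq2 1.42.0, other scalings and filters, thinned counts, a replicate block and each library left out in turn were the alternatives. Calls were tested on simulated data. Counts without genes that had 10 tags only in libraries of 1 group were chosen after seeing the data. The factors and gene lists were chosen with earlier results of these data known. Named genes are the 10 factors and, from each list, called genes and up to 4 of the most abundant others. Besides these, *Cbfb*, *Runx3*, *Ctbp1*, *Pkd1*, *Prkd1*, *Cdh1*, *Bglap*, *Pdgfrb*, *Thy1*, *Clic6* and *Il11* were chosen after their values were seen. Same-numbered libraries of the 2 groups deviated together from their group means over 5064 genes (r = 0.231, 0.209 and 0.27 for replicates 1, 2 and 3). The numbers of the labels were therefore read as pairing the libraries. The methods state 3 mice, without a map to libraries, so what same-numbered libraries share is not known. Libraries of a group differed beyond sampling noise (chi-square per gene of 2.51 to 5.72). Promoters are from RefSeq GRCm38.p6 and positions from GENCODE M21; *Snai2* and *Zeb1* promoters were not analysed here. Not every marker gene is reported here.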

Additional observations from a re-analysis of the deposited data

How the results depend on the processing

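*Runx2* was called higher under all 23 alternatives, and 0 factors were called lower in any. The number of factors called higher was 2 with no filter on low genes (with *Prrx2*), 2 with the adjusted p alone (with *Runx1*, 0.53) and 1 to 2 with a library left out, the second being *Twist1* without EGFP- replicate 3 (1.23, or 1.25 on the genes tested with all 6 libraries). Over all genes, 321 were called higher and 595 lower; 638 were higher and 812 lower with the adjusted p alone, and 341 to 580 were lower with a library left out. *Prrx1*, not called, ran from -0.76 to 0.06 with a library left out and changed sign without EGFP+ replicate 2 (0.062, or 0.06 on the genes tested with all 6); the cause was not tested. With the replicate block the *Runx2* log2 fold change was 2.02, no factor's call changed, and the counts were 337 higher and 648 lower; among the list genes it changed the calls of *Ybx1* and *Jup*, given in the report, and called *Mkl1* lower (-1.38). Of 264 list counts under other scalings, tests and the block, 253 were within 1.5 times; the EMT list had 5 higher, the fibroblast markers 0 higher and 2 lower with library size as the only scaling, where the median of all genes moved by -0.08 (log2), and the other mesenchymal factors had 3 higher with DESeq2. Without genes that had 10 tags only in libraries of 1 group, an alternative chosen after seeing the data, 3 pericyte markers and 4 other mesenchymal factors were lower, with 1 blood endothelial marker, and 0 partners of TWIST and 0 corepressors of SNAI and ZEB. Of the remaining cell type lists, 7 smooth muscle markers, 1 enteric glia marker and 2 Cajal cell markers were then lower. Calls rest on 3 libraries a group and on the 2-fold threshold, which *Runx1* missed; *Prrx2* had too few tags for the main filter. P-values measure the spread between these libraries.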

Other observations

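Of 34 tested mesenchymal transcription factors outside the 10, 5 were called higher and 7 lower by edgeR's quasi-likelihood test, with a median log2 fold change of -0.12. The shares over all tested genes were 3.44% higher and 6.37% lower. Higher were *Tead1* (log2 fold change 1.50, SE 0.16), the DNA-binding partner of YAP1, and *Glis3* (1.83, SE 0.20), both under every alternative, and *Creb3l1* (1.12), *Sox9* (1.28) and *Nr2f1* (1.10) with calls that some alternatives ended. *Creb3l1* fell below the fold threshold without EGFP- replicate 3 (0.89) and, on the genes tested with all 6 libraries, without EGFP+ replicate 1 (0.999). *Sox9* lost its call with DESeq2 (1.29), without EGFP- replicate 3 (0.90) and without EGFP+ replicate 1 (0.92) or 2 (1.21). *Nr2f1* lost it in 10 of 23 alternatives, among them library size as the only scaling (1.03), DESeq2 (1.11) and those without EGFP- replicate 1 (1.19), 2 (0.87) or 3 (1.22) and without EGFP+ replicate 3 (0.63). Called lower under every alternative in which they were tested were *Myocd*, the coactivator of smooth muscle genes, *Mef2c* (-2.24), *Heyl* (-1.88, and -2.64 without EGFP+ replicate 1), *Ebf1* (-2.05) and *Zfhx4* (-2.96). *Myocd* had 99 tags over the EGFP- and 2 over the EGFP+ libraries, 44.3-fold lower with an exact 95% counting interval from 11.9 to 370.9. Both EGFP+ tags came from replicate 3, and without it *Myocd* was at least 19.1-fold lower against a floor of 3 tags over the group. *Ebf3* (-2.38) lost its call without EGFP+ replicate 1 on the genes tested with all 6 libraries (-2.03) and was -4.51 without EGFP+ replicate 3, and *Osr1* (-1.03) without EGFP- replicate 3 (-0.98) or EGFP+ replicate 3 (-0.90) and with no filter (-0.99). *Myocd*, *Mef2c* and *Ebf3* passed the filter through their EGFP- libraries alone, and 4 of the other 31 factors were lower. The summed levels of smooth muscle and pericyte markers given in the report were lower in the same libraries, and so was each Cajal cell marker. Among the pericyte markers, *Abcc9* and *Kcnj8* had positive fold changes there.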
